A study of Mus musculus with 2 samples.

Results

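The genes of the proteasome were examined in primary chondrocytes of 6-day-old C57BL/6J mice, on 1 array with RNA taken before loading and 1 array with RNA from 24 h after the cells had been stretched by cyclic tensile strain. The strain was applied to cells on fibronectin-coated silicon chambers, 48 h after seeding, for 30 min at 0.5 Hz with 10% elongation. Genes were taken by symbol: every mouse gene named Psma, Psmb, Psmc, Psmd or Psme with a probe that matched one of its RefSeq transcripts, apart from the inducible catalytic subunits Psmb8, Psmb9 and Psmb10. This gave 42 of the 20660 genes with a named probe. They comprised 8 genes of the alpha ring and 8 of the beta ring of the 20S core, 6 ATPases and 11 non-ATPases of the 19S cap, 3 chaperones that assemble the cap, 4 activators, and 2 genes that share the symbol but encode no subunit. The latter are Psmc3ip, a factor of meiotic recombination, and Psme3ip1, which encodes a binding partner of the Psme3 protein. The control cells were taken before loading and no array of unloaded cells at 24 h was analysed here, so the effects of strain and of a further 24 h in culture cannot be told apart. Each time point is a single array with no replicate check, and the differences below carry no test and no p-value. The number of animals behind each RNA was not given in the sources used here.

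The proteasome is the protease that degrades ubiquitin-tagged proteins in the cytoplasm and nucleus. Its 20S core is a barrel of stacked rings: the outer alpha rings gate the entrance and the inner beta rings carry the cutting sites. The 19S cap binds the ubiquitin chain, removes it and threads the unfolded protein into the core with a ring of ATPases, while activators such as PA28 open the same entrance without ubiquitin. In NF-κB signalling, the pathway that the study followed in loaded chondrocytes, degradation of the IκB inhibitors by the proteasome releases the transcription factor.

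Upstream sequences are shown for 5 genes that stand for the groups described below. Psma1 and Psma2 belong to the alpha ring, whose 8 genes were all lower at 24 h as scaled here, most of them within the error. Psmb5 and Psmb6 are catalytic beta subunits, and the activator Psme1 had the highest ratio of the detected proteasome genes. Each sequence is the 250 bases before the RefSeq start of the gene in GRCm38.p6, written 5′ to 3′ on the strand of the gene. Capitals mark letters of motifs found on either strand: the CCAAT box (CCAAT) and the GC box (GGGCGG) in Psma1 and Psma2, the core of the antioxidant response element (TGACNNNGC) in Psmb5 and Psmb6, and the GC box also in Psmb6 and Psme1. A match describes these letters only.
Psma1, chr7:114276117-114276366, reverse strand: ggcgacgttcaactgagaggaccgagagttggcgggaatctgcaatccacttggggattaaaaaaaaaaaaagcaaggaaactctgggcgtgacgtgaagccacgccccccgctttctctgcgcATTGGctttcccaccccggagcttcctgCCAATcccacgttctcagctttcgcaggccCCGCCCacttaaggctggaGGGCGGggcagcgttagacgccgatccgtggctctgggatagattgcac
Psma2, chr13:14612992-14613241, forward strand: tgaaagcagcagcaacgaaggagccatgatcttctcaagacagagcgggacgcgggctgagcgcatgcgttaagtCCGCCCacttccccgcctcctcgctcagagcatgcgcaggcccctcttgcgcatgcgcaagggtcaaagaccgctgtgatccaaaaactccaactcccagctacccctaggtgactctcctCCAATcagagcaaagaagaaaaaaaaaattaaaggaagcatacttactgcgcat
Psmb5, chr14:54617996-54618245, reverse strand: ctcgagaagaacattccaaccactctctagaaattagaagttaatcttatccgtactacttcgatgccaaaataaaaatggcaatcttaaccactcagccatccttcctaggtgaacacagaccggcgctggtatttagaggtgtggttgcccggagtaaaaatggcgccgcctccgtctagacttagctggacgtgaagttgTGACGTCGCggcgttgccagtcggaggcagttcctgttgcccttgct
Psmb6, chr11:70525107-70525356, forward strand: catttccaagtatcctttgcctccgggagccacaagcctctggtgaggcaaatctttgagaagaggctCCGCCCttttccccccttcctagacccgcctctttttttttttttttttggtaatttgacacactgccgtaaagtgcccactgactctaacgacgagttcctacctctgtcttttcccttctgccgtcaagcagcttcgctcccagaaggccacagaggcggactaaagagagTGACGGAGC
Psme1, chr14:55578244-55578493, forward strand: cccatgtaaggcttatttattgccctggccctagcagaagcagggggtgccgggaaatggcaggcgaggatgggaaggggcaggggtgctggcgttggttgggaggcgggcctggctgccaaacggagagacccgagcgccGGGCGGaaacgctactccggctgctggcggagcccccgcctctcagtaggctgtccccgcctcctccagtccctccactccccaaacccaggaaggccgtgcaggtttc

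The antioxidant response element is bound by NRF1 (Nfe2l1) and NRF2 (Nfe2l2), transcription factors known to drive proteasome genes. Its core TGACNNNGC lay 47 to 39 bases before the start of Psmb5 and 9 to 1 bases before that of Psmb6. The RefSeq table used here gave an upstream sequence for 35 of the 42 genes. The core was found in 5 of them (Psmb5, Psmb6, Psmc6, Psmd9 and Psmd12), or 14.3%, against 11.5% of 27025 genes of all kinds, and in 0 of 7 alpha ring genes and 0 of 4 activators. The CCAAT box was found in 15 of the 35 (42.9%, against 37.5%) and in 5 of 7 alpha ring genes. The GC box was found in 21 (60%, against 35.4%), and the ETS motif CCGGAAG in 12 (34.3%, against 7.83%), of which 8 belonged to the cap. The core of the interferon-stimulated response element, GAAA and again GAAA with NN between them, was found in 3 of the 35 (8.57%, against 3.46%), Psmb3, Psmd4 and Psmd9, and in 0 of 4 activators. Both strands were searched, and the motifs did not overlap each other in the sequences shown. Those of Psma8, Psmb1, Psmb2, Psmb7, Psmc3, Psmd3 and Psmd7 were not analysed here.

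Before the values, the arrays are described. The authors deposited the processed intensity of each spot, which is the brightness after background subtraction. Of the 59305 spots that were no controls, 59.1% on the array before loading and 57.7% on the array at 24 h were well above background, and 0 were saturated. Each array was scaled to its own 75th percentile (466.4 and 466.2), and the log2 ratio is 24 h over before loading. The brightest probe stood for each gene, and a gene was called detected when that probe was well above background on both arrays. The error printed beside a ratio is the error the scanner software gives for the spots of both arrays, and it covers error within the arrays only. Its median was 0.204 over detected members and over all detected genes. For bright probes, past the error is thus in effect a single cut near 0.20. The SD over repeated spots was smaller, with a median of 0.087 over 268 detected probes with at least 8 spots. Over 14231 detected genes the median log2 ratio was -0.014 and the SD was 0.38. The chondrocyte markers Col2a1, Acan and Sox9 were detected on both arrays, as were all 11 markers of the list. Of markers for other cells, 5 of 6 macrophage, 2 of 5 endothelial, 4 of 6 skeletal muscle and 1 of 4 erythroid genes with a probe were detected. The summed intensities of these lists before loading and at 24 h were 4159 and 3963, 12898 and 12524, 1372 and 1384, and 78.5 and 84.7. Most of the signal of the first 3 lists came from Csf1r, Kdr and Acta1, with 3646, 12774 and 1001 before loading and log2 ratios of -0.15, -0.05 and -0.31. The dimmer probes of Csf1r had the opposite sign (0.20 and 0.27), within their errors. The second probe of Kdr was not detected (5.05 and 5.63), and neither were the endothelial genes Cdh5, Tek and Emcn. Whether the Kdr signal came from endothelial cells was not tested. Ptprc (20.9 and 46.1) and Myh8 (77.4 and 171.8) were more than 2-fold higher, with log2 ratios of 1.14 and 1.15, and Lyz2 (0.46), Pecam1 (0.23) and Myh3 (0.64) were higher past their error. C1qa (-0.42) and Acta1 were lower past theirs. The part of these cells in the results below was not tested. In such bulk RNA, fewer cells of a type and less RNA per cell cannot be told apart.

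Proteasome genes were bright on both arrays, and their log2 ratios lay close to 0. Of the 42 genes, 41 were detected, 39 lay above the 75th percentile on both arrays and 29 lay above the 90th percentile on both. Psmb11 was the gene not detected. It encodes the catalytic subunit of the thymus proteasome, and neither of its intensities, 3.99 and 11.2, was well above background. Psma8, an alpha subunit of the testis proteasome, was dim, with 67.9 before loading and 59.8 at 24 h.

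**Figure D1:**
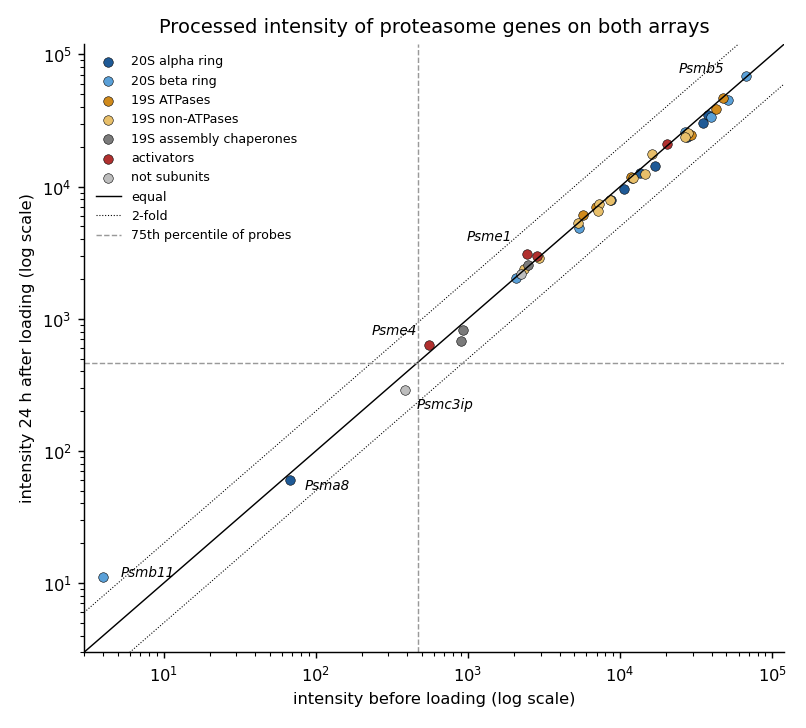
Processed intensity of the 42 genes before loading (x axis) and 24 h after loading (y axis), both on log scales, 1 point per gene and coloured by its group. The solid line marks equal intensity, the dotted lines 2-fold and the dashed lines the 75th percentile of each array. All 41 detected genes lie between the dotted lines, and Psmb11, at 3.99 and 11.2, was not well above background.

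None of the 41 detected genes passed 2-fold in either direction at 24 h. Of all detected genes 0.668% passed 2-fold upward and 1.83% downward, and of the abundant genes, those with a mean above the 75th percentile, 0.315% and 0.899% did. The log2 ratios of the 41 genes lay between -0.42 (Psmc3ip) and 0.33 (Psme1), with an SD of 0.14. Within 0.25 of 0 on the log2 scale lay 38 of the 41 (92.7%), against 63.3% of detected genes and 70.5% of abundant genes. The exceptions were Psme1, Psmd9 and Psmc3ip. The SD was 0.38 over detected genes and 0.31 over abundant genes. Abundant genes reach down to the 75th percentile, while 29 of the 41 members lay above the 90th. Genes matched to the members in level were not compared. Past the within-array error, 8 genes were lower (19.5%, against 22.7% of detected and 19.3% of abundant genes) and 1 was higher (2.44%, against 20.1% and 19%). The number lower past the error ranged from 2 (under median, loess and spike-in scaling) to 9 over the settings, and the number higher from 1 to 2. Psme1 and Psmc3ip passed their error in all 12 other settings and Psmd9 in all but the mean over probes, while each of the other 6 calls was lost under at least median, loess and spike-in scaling. The 41 genes had a median log2 ratio of -0.078. Of them 28 (68.3%) were below 0, against 52.4% of detected and 50.6% of abundant genes, and 13 were above 0, against 47.6% and 49.4%. The sign of this median depended on the scaling, since it was 0.020 when the arrays were scaled by their medians. The median of the members minus that of all detected genes was -0.064 as reported, and it lay between -0.081 and -0.030 over all settings, which include 12 others. Median scaling, spike-in scaling and the percentile over detected probes shift every gene alike, so they leave this difference unchanged. Of the genes that encode no subunit, Psmc3ip had intensities of 383.4 and 287.1 (-0.42, error 0.21) and Psme3ip1 had 2228 and 2176 (-0.03).

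**Figure D2:**
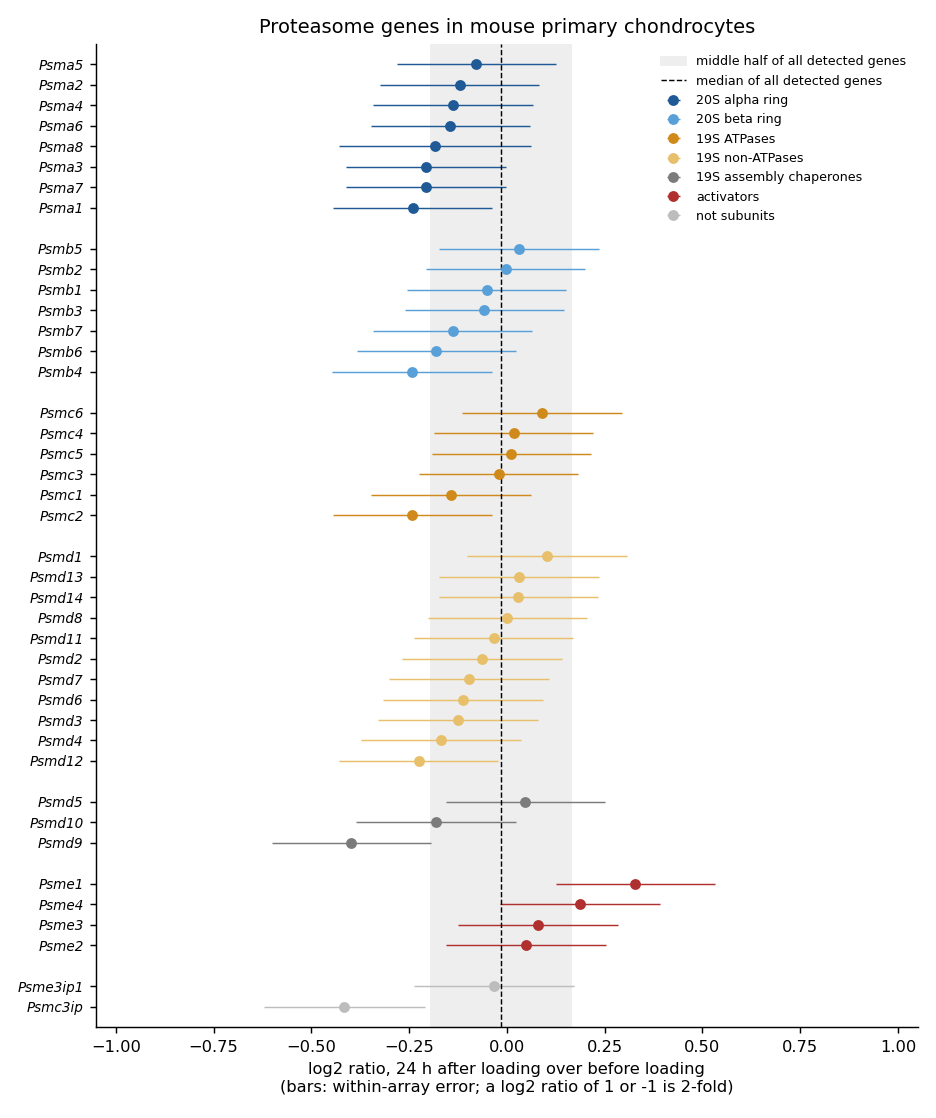
Log2 ratio of each detected proteasome gene, 24 h after loading over before loading (x axis), by group (colours), with bars for the within-array error. The dashed line is the median of all detected genes (-0.014) and the grey band their interquartile range. All 8 alpha ring genes lie to the left of the dashed line and all 4 activators to its right.

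The alpha ring subunits, which form the gate of the core, had all 8 members below 0 (against 52.4% of detected genes). The intensity of Psma1 was 16934 before loading and 14319 at 24 h, a log2 ratio of -0.24 with an error of 0.20. Psma3 went from 34839 to 30179 and Psma7 from 27624 to 23919, with log2 ratios of -0.21 each. These 3 were lower by slightly more than their error of 0.20, and the other 5 were lower by less than their error. All 3 calls were lost under median, loess and spike-in scaling, and 1 was left under quantile normalization, normexp and the percentile over detected probes. Psma2 went from 37727 to 34671 (-0.12), Psma4 from 8760 to 7957 (-0.14), Psma5 from 13422 to 12708 (-0.08) and Psma6 from 10612 to 9595 (-0.14). The dim Psma8 had a log2 ratio of -0.18 with an error of 0.25. The median of the group was -0.16 and its SD 0.05, the narrowest of the groups. All 8 stayed below the median of all genes under each of the 12 other settings, while under median scaling and under quantile normalization 7 of the 8 were below 0. Settings that shift every gene alike could not move them across that median.

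The beta ring holds the cutting sites. Psmb5, which carries the chymotrypsin-like site, had intensities of 67107 and 68532, a log2 ratio of 0.03, and its second probe had 0.04. Psmb5 was below 0 (-0.015) when each spot was centred on its nearest spots. Psmb6, with the caspase-like site, had 51256 and 45204 (-0.18), and Psmb7, with the trypsin-like site, had 5336 and 4844 (-0.14). The ratios of the 3 catalytic subunits all lay within their error of 0.20. Of the beta subunits without a cutting site, Psmb4 was lowest, from 39541 to 33408 (-0.24). Psmb1, Psmb2 and Psmb3 had log2 ratios of -0.05, -0.004 and -0.06. The beta ring had a median of -0.058, with 6 of 7 detected genes below 0 (against 52.4% of all detected genes). Its median was 0.040 under median scaling.

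The 6 ATPases of the cap, which unfold the substrate, lay around 0 with a median of -0.005. Psmc6 was the highest, from 5708 to 6073 (0.09), and Psmc2 the lowest, from 29228 to 24709 (-0.24, error 0.20). The second probe of Psmc2 had a log2 ratio of -0.04, and under normexp this probe was the brighter of both and had -0.004, while the other had -0.23. Psmc1 had -0.14, with -0.16 on its second probe. Psmc3, Psmc4 and Psmc5 were nearly level, with log2 ratios of -0.02, 0.02 and 0.01. The range of the ATPases overlapped that of the alpha ring.

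The non-ATPases of the cap include its scaffold, a ubiquitin receptor and a deubiquitinase, and they had a median of -0.064. Psmd1, a scaffold subunit of the base, was the highest with intensities of 16312 and 17502 (0.10). Psmd4, a ubiquitin receptor, had 26512 and 23565 (-0.17). Psmd14, the deubiquitinase that cuts the ubiquitin chain off the substrate, had 2329 and 2376 (0.03), and was below 0 (-0.036) with normexp correction. Psmd12, a subunit of the lid, was the only one of the 11 past its error, from 14572 to 12452 (-0.23, error 0.20), and its second probe had -0.16. The remaining 7 lay between -0.13 (Psmd3) and 0.03 (Psmd13).

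The chaperones that assemble the cap were dimmer and their probes disagreed most. Psmd9 had intensities of 901 and 684 on its brighter probe (-0.40, error 0.20) and 413 and 479 on the other (0.21), which makes it the only one of 10 genes with 2 detected probes whose probes differed in sign. The mean over both probes was -0.09. Psmd10, also known as gankyrin, had 931 and 821 (-0.18) and, on its second probe, 815 and 620 (-0.39). Psmd5 had 2486 and 2568 (0.05). Over the 10 genes with 2 detected probes the log2 ratios of the probes differed by a median of 0.040 and by 0.007 to 0.61. The median lay well under the single-ratio error of 0.20.

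The activators had all 4 members above 0 (against 47.6% of detected genes). Psme1, the alpha subunit of PA28, is printed as 10 spots on each array. Before loading these spots had a lowest intensity of 2391, a median of 2452 and a highest of 2548. At 24 h they had 2991, 3082 and 3167. The spots of both arrays did not overlap in intensity, and the log2 ratios of the 10 spots lay between 0.28 and 0.37, with a mean of 0.33 (SD 0.03 over spots) or 1.26-fold. How many other probes have spots that do not overlap between the arrays was not counted. The median SD over spots of probes with at least 8 spots was 0.087, above that of Psme1. Spots repeat the measurement of 1 RNA and are no replicates of the cells. Among 268 detected probes with at least 8 spots, 37 had a higher log2 ratio than Psme1 and the median was 0.04.

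Psme2, the beta subunit that joins Psme1 in the PA28 ring, was nearly level, with 20170 and 20854 (0.05) on the brighter probe and 0.06 on the other. Mice also carry Psme2b, a gene related to Psme2, and whether the Psme2 probes bind its RNA was not tested. Psme3, which forms the nuclear PA28 ring, had 2824 and 2984 (0.08). Psme4, the large single-chain activator PA200, had 553 and 630 (0.19, error 0.20) on one probe and 249 and 286 (0.20) on the other. Psme1 was the only activator past its error of 0.20, and Psme4 passed its error as well under median scaling (0.28), spike-in scaling (0.25) and the percentile over detected probes (0.21). The median of the 4 was 0.13, and all 4 stayed above the median of all genes under each of the 12 other settings. Those settings that shift every gene alike could not change this place. The lowest of them, 0.05 (Psme2), lay above the highest of the alpha ring, -0.08 (Psma5).

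**Figure D3:**
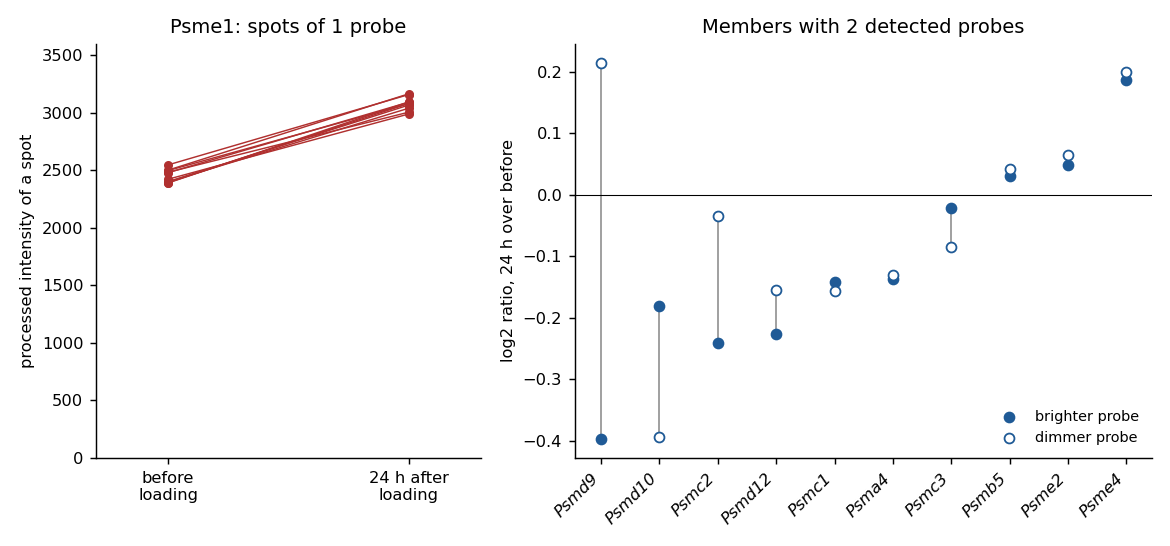
Left, processed intensity (y axis, from 0) of the 10 Psme1 spots before and 24 h after loading, each spot joined by a line. Right, log2 ratio (y axis) of the brighter (filled) and dimmer (open) probe of the 10 genes with 2 detected probes. All 10 Psme1 spots are higher at 24 h, and the probes of Psmd9 lie apart at -0.40 and 0.21.

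Set side by side, the 20S core had a median of -0.14, the 19S cap without its chaperones -0.034 and the activators 0.13. Below 0 lay 14 of 15 detected core genes (93.3%), 10 of 17 cap genes (58.8%) and 0 of 4 activators. Over all detected genes 52.4% lay below 0, near the share of the cap. These counts depend on the scaling: of all 41 detected members, 28 lay below 0 as reported and 19 under median scaling. The core lay 0.11 below the cap and the activators 0.27 above the core. The latter difference does not depend on the scaling of the arrays by a constant, and it lay between 0.25 and 0.33 under the 12 other settings. The difference between core and cap, also unaffected by such a constant, lay between -0.12 and -0.084 under the same settings. None of these differences was tested, since each rests on 2 arrays.

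**Figure D4:**
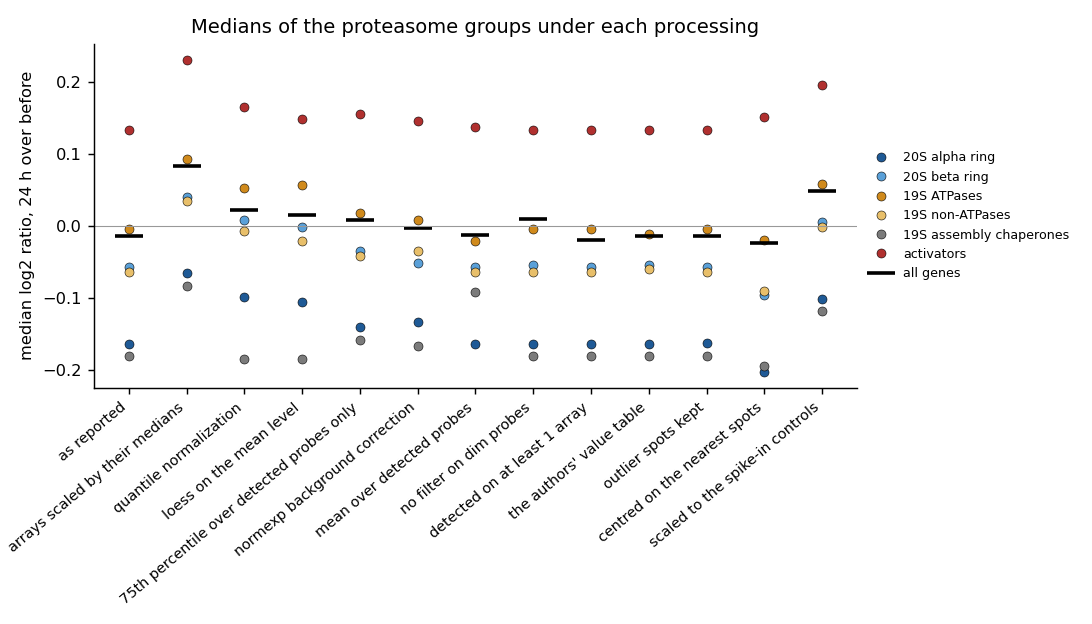
Median log2 ratio (y axis) of the 6 proteasome groups (coloured points) and of all genes (black bars) under the processing as reported and 12 other settings (x axis). The medians of the activators lie above those of all genes and the medians of the alpha ring below them in each setting. The medians of the 20S beta ring, the 19S ATPases and the 19S non-ATPases lie on either side of 0 depending on the setting. Those of the 19S assembly chaperones lie between -0.20 and -0.083. Settings that shift every gene alike cannot change the order relative to all genes.

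Of the other genes of the pathway, the subunits and helpers that the symbol rule left out were examined next. The inducible catalytic subunits, which replace the constitutive ones in the immunoproteasome, went apart. Psmb8, the counterpart of Psmb5, had 31.5 and 56.2 (0.84, error 0.29), Psmb9, the counterpart of Psmb6, had 230.4 and 124.7 (-0.88, error 0.21), and Psmb10, the counterpart of Psmb7, had 6105 and 6188 (0.02). The probes of Psmb8 and Psmb9 were dim. The chaperones that assemble the 20S core, Psmg1, Psmg2, Psmg3, Psmg4 and Pomp, were all below 0 (against 52.4% of detected genes), with a median of -0.23, and 3 of 5 were lower past their error (against 22.7%). Psmg1 was the lowest of these, from 15810 to 12774 (-0.31), and its second probe had -0.24. Psmg4 was the highest (-0.14). Psmg2 (-0.29) and Psmg3 (-0.23) were the others past their error of 0.20. Median scaling raised every log2 ratio by 0.098. Calls past the error in this and the following lists were not recounted under the other settings.

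Ubb, which encodes a chain of ubiquitin, had a log2 ratio of -0.04, within its error of 0.20. The enzymes that activate ubiquitin, Uba1 and Uba6, had 0.13 and 0.10, also within their errors of 0.20 and 0.21. The second probe of Uba6, with intensities of 103.1 and 79.1, had -0.38 (error 0.23), which is the opposite sign and past its error. Of 7 shuttles that carry ubiquitinated proteins to the proteasome, 4 were lower past their error (against 22.7% of detected genes) and 1 was higher (against 20.1%). Ubqln1 was the lowest, from 4483 to 3132 (-0.52), and Ubqln4 the highest, from 233.5 to 289.2 (0.31). Of 11 further subunits and cofactors, 2 were higher past their error and 2 lower, near the shares over detected genes of 20.1% and 22.7%, with the highest ratio for Txnl1 (0.62), a thioredoxin-like protein of the cap, and the lowest for Uchl5 (-0.39), a deubiquitinase of the cap. Adrm1, from 6147 to 7226 (0.23, error 0.20), was also higher past its error, and Psmf1 (-0.32) was also lower. Of 10 genes of the segregase p97 (Vcp) and its cofactors, 1 was higher and 2 were lower past their error, near or under the same 20.1% and 22.7%, and Vcp itself had 0.03. Ufd1 was the lowest of them (-0.42), with 0.07 on its second probe, and Ubxn4 the highest (0.45).

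The mRNAs of NRF1 and NRF2, transcription factors that act on proteasome genes, were nearly level. Their proteins were not measured here. Nfe2l1 had 1491 and 1376 (-0.11, error 0.20) and Nfe2l2 had 6029 and 5685 (-0.08). Of 12 genes of NRF1 and its processing, Btrc, a ubiquitin ligase subunit that also targets IκB, was the only one more than 2-fold higher, from 169.4 to 382.9 (1.18), but its second probe had 0.20. Maff, a small partner of NRF factors, was the single gene of the list to pass 2-fold downward, from 87.5 to 39.5 (-1.14, error 0.27) at a dim probe. The list for the anaphase-promoting complex, the ubiquitin ligase of mitosis, also held its coactivators and E2 enzymes. Of the 17 detected genes of this list, 7 were lower past their error (against 22.7% of detected genes) and 0 higher (against 20.1%). The lower genes include Ube2c, Ube2s (-0.61) and Cdc20, which are not subunits of the complex. The E2 enzyme Ube2c went from 2554 to 483.3 (-2.40) and the coactivator Cdc20 from 8092 to 1781 (-2.18), both more than 2-fold lower. The subunit Anapc15 was lower on all 3 of its probes, at -0.72, -0.83 and -0.84.

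**Figure D5:**
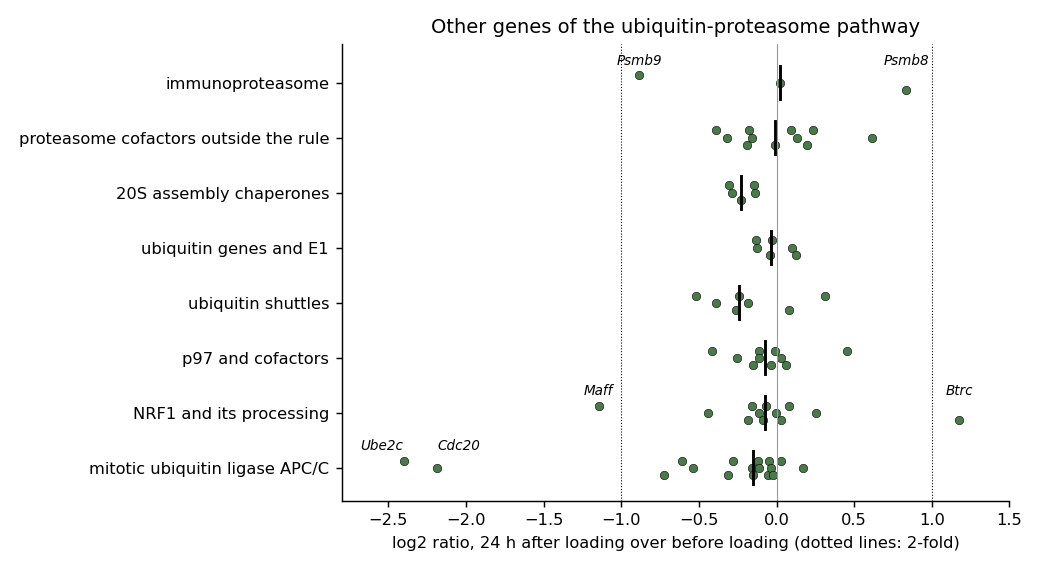
Log2 ratio (x axis) of the detected genes of 8 lists of the ubiquitin-proteasome pathway (rows), 1 point per gene, with a black bar at the median of each list and dotted lines at 2-fold. Ube2c and Cdc20 lie past 2-fold lower, Maff (-1.14) just past it and Btrc (1.18) past 2-fold higher, and the 5 chaperones of 20S assembly all lie below 0.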

How the data were processed

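Chondrocyte RNA from before and from 24 h after the strain was labelled with Cy3 and hybridised to 2 one-colour SurePrint G3 Mouse arrays, 1 per time point. The authors deposited a processed intensity per spot, with its error and flags, from Agilent Feature Extraction 10.10.1.1 (per the submitters' processing notes), background-subtracted and not normalized between arrays. The intensities in the deposited value table differed from these by at most 0.497%.

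Spots flagged as outliers on either array (141 before loading, 138 at 24 h) were left out and spots of one probe averaged on the log2 scale, which left 55678 probes. Accessions without versions were named through a RefSeq table of GRCm38.p6 (27235 probes matched), which was used for names and for the printed upstream sequences. The files' own build is mm9 and no coordinates of it are printed. The error of a log2 ratio combines the software's relative errors of both arrays, taken as the root mean square over the spots of a probe and not divided by their number.

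The members, their groups and the pathway lists were chosen with earlier results of these data known, and the motifs and printed promoters after the values were seen. Named genes are the catalytic subunits, the activators, Psmd4, Psmd14, the 5 highest and 5 lowest log2 ratios and members whose probes differed in sign. No detected member passed 2-fold or lay more than 2 errors from the median of all detected genes. Further members are given to account for all 42. In each pathway list, genes past 2-fold and the highest and lowest ratio are named, and others were chosen after their values were seen. Some genes of the ubiquitin list are not reported here. The number of arrays limits the precision. A total of 11 alternatives set earlier and 1 added after seeing the data were tried. R 4.3.3 and its package limma 3.58.1 gave normexp (offset 50), quantile and loess, and all else was computed with pandas 2.3.3 and numpy 2.4.6 under Python 3.11.15. The steps were tested on simulated data with known changes.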

Additional observations from a re-analysis of the deposited data

How the results depend on the processing

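Scaling by the array medians, which raised the median of all detected genes from -0.014 to 0.084, moved the group medians most. The median log2 ratio of all members was then 0.020, of the alpha ring -0.066, of the beta ring 0.040, of the 19S ATPases 0.093, of the non-ATPases 0.034, of the assembly chaperones -0.083 and of the activators 0.23. With the mean over detected probes the assembly chaperones had -0.092. Members lower past their error numbered 8 as reported, 2 under median scaling, loess and spike-in scaling, 3 under quantile normalization, 5 with the percentile taken over detected probes and 4 with normexp. Members higher past their error numbered 1 as reported and 2 under median scaling, spike-in scaling and the percentile over detected probes. With no filter on dim probes 1 member, Psmb11, was more than 2-fold higher, as that setting keeps a probe not well above background. Normexp was run on the median spot intensity, since the files hold no mean. Over all detected genes, genes more than 2-fold higher were 26.8% of those past 2-fold (95 higher and 260 lower) and 38.8% (130 and 205) under median scaling. The spike-in scaling was chosen after seeing the data. No paired analysis was possible because each time point has 1 array.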
